A study of Mus musculus with 60 samples.

Results

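The ventral midbrain was compared between stages E12.5 and E13.5 (embryonic days) in mouse, 1 day apart while its dopaminergic neurons are being born. Members were chosen by their labels alone: the 3 libraries of ventral midbrain at E12.5 (replicates 1 to 3) and the 3 at E13.5 (replicates 4 to 6), 6 of the 60 libraries of the series. Each library is bulk RNA sequencing of a dissected piece that took in floor plate and basal plate. All embryos, in all groups used here, carried TH-GFP, a green fluorescent reporter tied to the gene for tyrosine hydroxylase, by which the tissue was found during dissection; no agent was given. The same 2 stages of the dorsal midbrain, alar plate, ventral forebrain and ventral hindbrain, 3 libraries each, served for comparison. Whether each library stems from its own embryo is not stated, and the p-values therefore cover only the variation among these libraries, which may in part be technical. Within each stage the libraries differed in Xist and Y-linked RNA, so not all came from the same embryo or pool. Libraries alike in this respect may still share an embryo. All E12.5 libraries carry one name prefix and all E13.5 libraries another, so stage and prefix cannot be told apart within the ventral midbrain.

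The floor plate is the ventral midline of the neural tube. In the midbrain its progenitors, which express Shh, Foxa2 and Lmx1a, divide along the ventricle and give rise to dopaminergic neurons, which then switch on Nr4a2, Th, Pitx3 and Slc6a3. The basal plate beside it gives rise to GABAergic neurons, motor neurons and the neurons of the red nucleus, and glial precursors appear after the neurons.

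Expression is given as RPKM, reads per kilobase of transcript and per 1000000 assigned reads. A change is the difference E13.5 minus E12.5 on the log2(RPKM + 1) scale with its standard error, which understates the change of genes with low values. It was tested with limma across 13405 features whose mean reached 1 RPKM at one stage or both. Here "rose" and "fell" mean a Benjamini-Hochberg adjusted p below 0.05 at any size, and "2-fold" adds an absolute log2 change of at least 1. In bulk pieces, fewer cells of a type and less RNA per cell cannot be told apart.

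The E12.5 libraries held 8671033 to 11259112 reads, and the E13.5 libraries 4973179 (replicate 4), 14078912 (replicate 5) and 10208226 (replicate 6). The mean correlation of a library with the others of its group, across genes, was 0.992 to 0.993 at E12.5 and 0.979 to 0.986 at E13.5. Lmx1a, which marks the midbrain floor plate, stood at 77.9 ± 6.83 RPKM (SD, n = 3) at E12.5 against 0.337 to 16.8 elsewhere, and Th at 79.9 ± 17.1 RPKM at E13.5 against 0.6402 to 3.703. E13.5 replicate 4 differed from the other 5 ventral midbrain libraries in a gene of meninges. It held 53.1 RPKM of the collagen gene Col1a1, a marker of meninges, against 0.0721 to 0.237 elsewhere. Xist exceeded the Y-linked genes in E12.5 replicates 1 and 2 and E13.5 replicate 5, so the 2 stages differed in this respect too.

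Over all features, 2148 passed the test at any size, which is 16%: 1281 rose (9.56%) and 867 fell (6.47%). Only 47 (0.351%) passed at 2-fold, 43 higher (0.321%) and 4 lower (0.0298%), and the median change was 0.028. The split between rising and falling depended on scaling: 59.6% of the features that passed were higher as deposited, 48.7% after median-of-ratios rescaling and 44.3% after quantile normalization. The number of calls depended on the spread assumed. A single fit of the 30 libraries of both stages, which shares the wider spread of the other regions, left 39 calls and at most 1 member of any gene list below. Leaving out 1 ventral midbrain library gave 708, 1263 and 471 calls without E12.5 replicate 1, 2 or 3, and 2335, 593 and 1567 without E13.5 replicate 4, 5 or 6. The 171 genes followed singly include some not called with all 6 libraries, which had no call to lose. Among the 171, 57, 27 and 67 lost their call in the first 3 of these fits and 8, 63 and 19 in the others. In the fit of 30 libraries 125 lost theirs, and in a fit of all 60 libraries 132.

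Genes of GABAergic neurons were among the largest changes of the step. Of 16 tested genes of this list, 8 rose (9.56% of all features did), 0 fell and 8 were not called, and 5 passed at 2-fold; the list's median change was 0.90 against 0.028 over all features. Gad1 (chromosome 2, 70553072 to 70602014, plus strand), which encodes an enzyme that makes GABA, stood at 2.15, 4.37 and 4.93 RPKM at E12.5 and 15.997, 21.4 and 17.5 RPKM at E13.5. All 3 E13.5 libraries lay above all 3 E12.5 libraries, and the change was 2.04 ± 0.23, adjusted p = 0.00942. Gad2, for the second such enzyme (chromosome 2, 22622205 to 22693874, plus strand), stood at 5.12, 7.45 and 7.94 RPKM at E12.5 and 12.6, 19.7 and 16.4 RPKM at E13.5, again without overlap (1.14 ± 0.18, adjusted p = 0.0111). Slc32a1, the vesicular transporter that loads GABA (chromosome 2, 158610767 to 158615748, plus strand), stood at 3.06, 6.76 and 6.19 RPKM at E12.5 and 11.8, 18.6 and 18.2 RPKM at E13.5. Its groups did not overlap either (1.47 ± 0.26, adjusted p = 0.0134).

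Of the transcription factor genes of these neurons, some rose and others were not called. Sox14 (chromosome 9, 99874106 to 99876170, minus strand), a marker of midbrain and diencephalic GABAergic neurons, had the largest change among the named genes that passed at 2-fold with at least 5 RPKM. It stood at 2.66, 4.96 and 2.59 RPKM at E12.5 and 10.96, 22.5 and 28.9 RPKM at E13.5 (2.25 ± 0.33, adjusted p = 0.0097). Tal1 (chromosome 4, 115056426 to 115071755, plus strand), which directs GABAergic fate in the midbrain, stood at 5.28, 7.15 and 8.49 RPKM at E12.5 and 12.03, 24.1 and 20.1 RPKM at E13.5, with all E13.5 libraries above (1.28 ± 0.24, adjusted p = 0.0153). Gata3, its partner, went from 9.902 ± 2.04 to 18.1 ± 3.79 RPKM (0.80 ± 0.17, adjusted p = 0.0219). Zfpm2, a cofactor of Gata proteins, went from 2.66 ± 0.755 to 5.59 ± 0.618 RPKM (0.87 ± 0.16, adjusted p = 0.0153). Gata2, which acts earlier in the same lineage, was not called, at 11.2 ± 1.81 to 13.6 ± 3.52 RPKM (0.23 ± 0.19, adjusted p = 0.415). Tal2 was not called either, at 11.9 ± 3.58 to 9.94 ± 3.85 RPKM (-0.26 ± 0.26, adjusted p = 0.503). Calls numbered 6, 8 and 7 without E12.5 replicate 1, 2 or 3, and 10, 4 and 11 without E13.5 replicate 4, 5 or 6, and 8 after the correction for transcript length described below. The calls of Slc32a1 and Zfpm2 were lost without E13.5 replicate 5, and that of Tal1 without E12.5 replicate 1 or E13.5 replicate 5. The call of Gata3 was lost in 4 of the 6 fits, without E12.5 replicate 1 or 3 or E13.5 replicate 5 or 6.

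**Figure D1:**
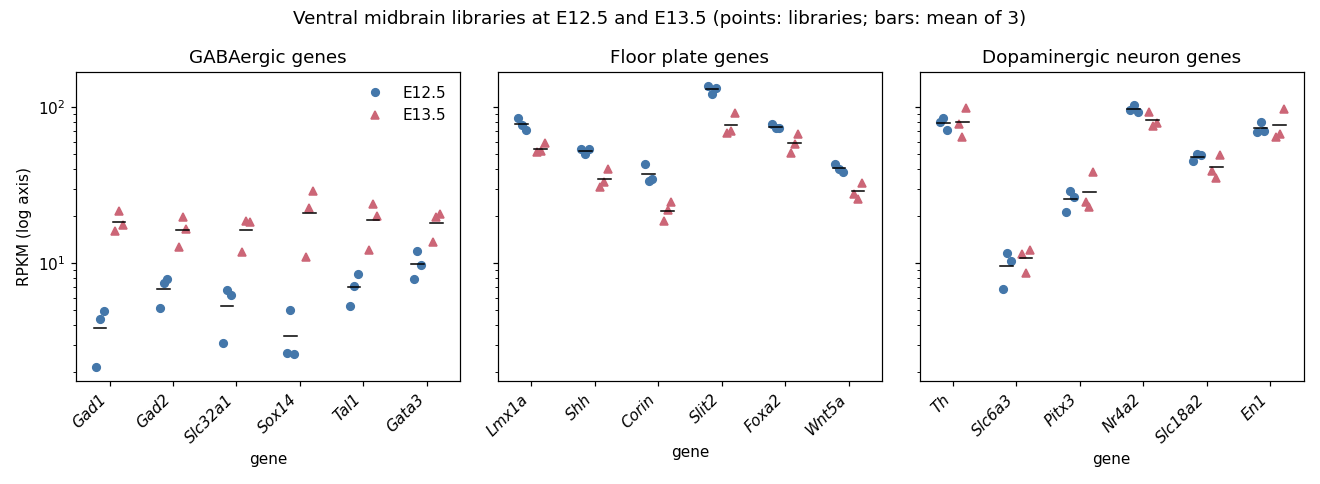
RPKM of 18 genes in each ventral midbrain library on a log axis: circles are the 3 libraries of E12.5, triangles the 3 of E13.5, and bars their means. The GABAergic and floor plate genes shown are all among those called. These GABAergic genes sit higher at E13.5 without overlap and these floor plate genes lower without overlap. Over the whole lists, 9 of 16 GABAergic genes lay above without overlap (23% of all features did). Of 20 floor plate genes, 14 lay below without overlap (17.4% of all features did). Of the 6 genes of dopaminergic neurons all overlap between the stages.

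At E12.5 the ventral midbrain had the lowest mean of the 5 regions for Gad1, Gad2, Slc32a1, Sox14, Tal1, Gata3 and Zfpm2, 7 of the 8 genes of the list that rose. Gad1 was at 3.82 ± 1.47 RPKM against group means of 15.6 to 29.5, and Tal1 at 6.97 ± 1.61 against 30.1 to 42.96. At E13.5 the ventral midbrain, at 18.3 ± 2.79 RPKM of Gad1, lay within the range of the other regions' means (10.6 to 34.5), as it did for Sox14 (20.8 ± 9.08 against 9.095 to 58.7). The change of the ventral midbrain exceeded the mean change of the 4 other regions by 1.98 (95% interval 1.003 to 2.96, adjusted p = 0.27) for Gad1 and by 1.72 (95% interval 0.59 to 2.85, adjusted p = 0.868) for Slc32a1. For Sox14 the difference was 2.29 (95% interval 0.72 to 3.85, adjusted p = 0.918) and for Tal1 1.85 (95% interval 0.41 to 3.30, adjusted p = 0.984). These intervals are per gene, and no difference passed after adjustment over 13994 features. Over the list, the median change in the other regions was -0.21. These means join regions that went different ways. Gad1 changed by 0.54 in the dorsal midbrain, 0.83 in the alar plate, -1.11 in the ventral forebrain and -0.0091 in the ventral hindbrain. In the same order the changes were -0.14, 0.75, -1.41 and -0.17 for Slc32a1, and 0.86, 0.26, -0.82 and -0.45 for Sox14. Those of Tal1 were 0.16, 0.85, -2.78 and -0.54.

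**Figure D2:**
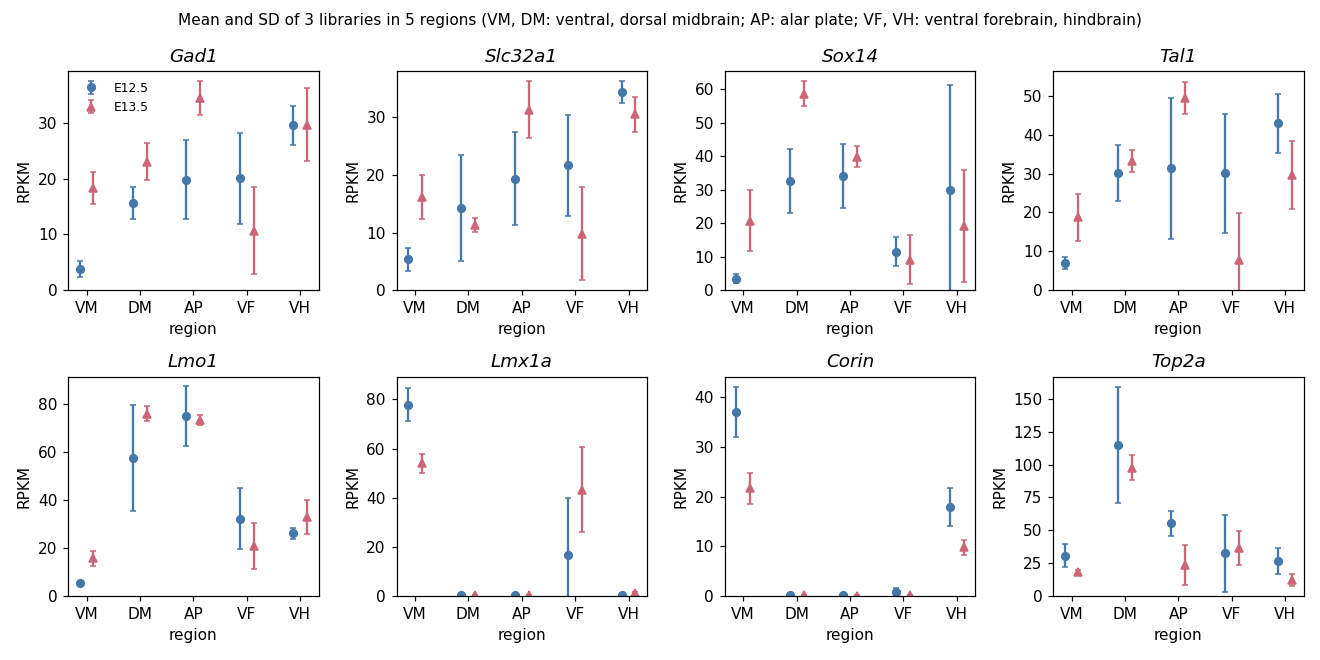
Mean RPKM and SD of 3 libraries in each of 5 regions at E12.5 (circles) and E13.5 (triangles) for 8 genes, with each axis starting at 0, where some error bars end. The GABAergic genes Gad1, Slc32a1, Sox14 and Tal1 have their lowest E12.5 mean in the ventral midbrain, while Corin is highest there at both stages.

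Floor plate genes moved the other way. Of 20 tested, 14 fell (6.47% of all features did) and 0 rose, with a median change of -0.48, and in 14 the 3 E13.5 libraries all lay below the 3 of E12.5, where 17.4% of all features did so. Slit2 (chromosome 5, 47983138 to 48307733, plus strand), a secreted axon repellent, stood at 137, 121 and 133 RPKM at E12.5 and 67.9, 70.7 and 91.4 RPKM at E13.5 (-0.77 ± 0.11, adjusted p = 0.00942). Lmx1a (chromosome 1, 167689237 to 167848741, plus strand), which specifies the dopaminergic lineage, stood at 85.04, 77.3 and 71.4 RPKM at E12.5 and 51.6, 52.001 and 58.5 RPKM at E13.5 (-0.52 ± 0.076, adjusted p = 0.0097). Shh (chromosome 5, 28456815 to 28467256, minus strand), the morphogen of the floor plate, stood at 53.9, 49.98 and 53.8 RPKM at E12.5 and 30.96, 33.04 and 40.3 RPKM at E13.5 (-0.59 ± 0.092, adjusted p = 0.0109). In each of these 3 genes every E13.5 library was below every E12.5 library. Corin (chromosome 5, 72300025 to 72504473, minus strand), a protease used as a surface marker of midbrain floor plate, stood at 42.9, 33.7 and 34.4 RPKM at E12.5 and 18.5, 21.8 and 24.8 RPKM at E13.5 (-0.74 ± 0.12, adjusted p = 0.0113). Ferd3l, a bHLH factor of the floor plate, went from 35.2 ± 4.31 to 20.4 ± 4.49 RPKM (-0.77 ± 0.14, adjusted p = 0.0149).

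The Wnt genes Wnt5a (-0.49 ± 0.087) and Rspo2 (-0.57 ± 0.12), the latter a Wnt enhancer, fell as well (adjusted p = 0.0138 and 0.019). So did Foxa1 (-0.35 ± 0.078), Foxa2 (-0.36 ± 0.094), Lmx1b (-0.36 ± 0.074) and Msx1 (-0.48 ± 0.13), with adjusted p of 0.0229, 0.0377, 0.0186 and 0.0405. Foxa1, Foxa2 and Msx1 lost their calls without any 1 of E12.5 replicates 1 to 3 or E13.5 replicate 5. Msx1 also lost its call without E13.5 replicate 4, and Lmx1b without E12.5 replicate 1 or 3 or E13.5 replicate 5. Foxa2 stood at 78.5, 73.2 and 73.6 RPKM at E12.5 and 50.5, 57.9 and 67.3 RPKM at E13.5. Wnt1 was not called (-0.68 ± 0.23, adjusted p = 0.0751), nor were the secreted guidance gene Ntn1 (-0.23 ± 0.12, adjusted p = 0.221) and Spon1 (-0.40 ± 0.19, adjusted p = 0.169). The floor plate calls numbered 4, 9 and 7 without E12.5 replicate 1, 2 or 3, and 13, 5 and 17 without E13.5 replicate 4, 5 or 6, and 12 after the length correction. In the other regions the list's median change was 0.051; for Slit2 the ventral midbrain differed by -0.68 (95% interval -1.35 to -0.014, adjusted p = 0.994).

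Th, Pitx3, Slc6a3, En1 and Nr4a2, genes expressed in dopaminergic neurons but not all limited to finished ones, were not called. Th stood at 80.6, 85.04 and 71.6 RPKM at E12.5 and 77.5, 64.1 and 98.1 RPKM at E13.5, and its change was -0.003 ± 0.14, adjusted p = 0.99. The E13.5 libraries lay on both sides of the E12.5 ones. Pitx3, a homeobox gene of midbrain dopaminergic neurons, stood at 21.2, 29.02 and 26.6 RPKM at E12.5 and 24.6, 22.97 and 38.4 RPKM at E13.5 (0.13 ± 0.19, adjusted p = 0.655). Slc6a3, the dopamine transporter, stood at 6.81, 11.6 and 10.3 RPKM at E12.5 and 11.4, 8.65 and 12.04 RPKM at E13.5 (0.16 ± 0.18, adjusted p = 0.559). En1, needed for their survival, stood at 69.7, 79.9 and 70.3 RPKM at E12.5 and 64.6, 66.96 and 97.6 RPKM at E13.5 (0.036 ± 0.14, adjusted p = 0.884). The groups overlapped in all 3. Nr4a2, the nuclear receptor of these neurons, stood at 96.4, 104 and 92.7 RPKM at E12.5 and 92.9, 75.6 and 79.2 RPKM at E13.5 and was not called (-0.24 ± 0.081, adjusted p = 0.0747). The sign for Th, Pitx3, Slc6a3 and En1 turned when single libraries were left out, and for En1 also with quantile normalization and length correction.

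Of 14 tested genes of dopamine synthesis and handling, 1 rose and 0 fell, with a median of -0.11. Over all features, 9.56% rose and 6.47% fell. The 1 call of the list was lost without E12.5 replicate 1 or 3 or E13.5 replicate 6, and in the last case 3 of its genes fell. The list's median was -0.075, -0.043 and -0.09 without E12.5 replicate 1, 2 or 3, and 0.0039, -0.015 and -0.16 without E13.5 replicate 4, 5 or 6. Ddc, the enzyme after Th, went from 160 ± 12.2 to 130 ± 20.4 RPKM and was not called (-0.31 ± 0.11, adjusted p = 0.0837), nor was Slc18a2, the vesicular monoamine transporter (-0.24 ± 0.11, adjusted p = 0.178). Of 21 dopaminergic transcription factors, a list that shares Lmx1a, Lmx1b, Foxa1, Foxa2 and Msx1 with the floor plate list, 11 fell and 0 rose (median -0.32). Otx2, which marks progenitors of the midbrain and a subset of its dopaminergic neurons, stood at 67.8, 46.1 and 49.6 RPKM at E12.5 and 33.1, 31.8 and 41.5 RPKM at E13.5 (-0.60 ± 0.15, adjusted p = 0.0343). Ebf2, a factor of early neurons, stood at 25.2, 25.8 and 23.8 RPKM at E12.5 and 16.995, 17.3 and 20.96 RPKM at E13.5 (-0.42 ± 0.083, adjusted p = 0.0168). The call of Otx2 was lost without E12.5 replicate 1 or 3 or E13.5 replicate 4 or 5. That of Ebf2 was lost without any 1 of E12.5 replicates 1 to 3 or E13.5 replicate 5. The calls among the 21 factors numbered 1, 4 and 3 without E12.5 replicate 1, 2 or 3, and 10, 1 and 11 without E13.5 replicate 4, 5 or 6, and 8 after length correction. Aldh1a1, a marker of ventral dopaminergic neurons, went from 0.706 ± 0.263 to 1.69 ± 0.578 RPKM and was just outside the threshold (0.65 ± 0.19, adjusted p = 0.0562).

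**Figure D3:**
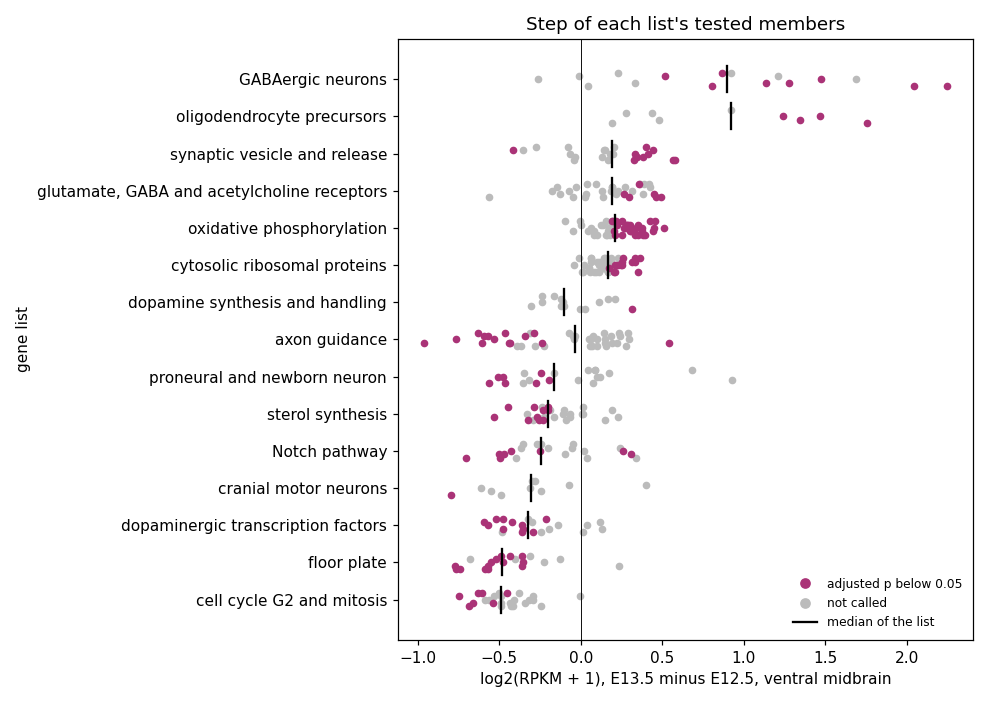
Change from E12.5 to E13.5 of each tested member of 15 gene lists (points, dark where the adjusted p was below 0.05) with the list's median (bar). With all 6 libraries the medians are 0.90 for the GABAergic and 0.92 for the oligodendrocyte precursor list (the latter 0.58 without E13.5 replicate 4), and -0.48 for the floor plate and -0.49 for the mitosis list (the latter -0.30 without E12.5 replicate 1).

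Some genes of dividing cells fell. Of 25 tested genes of G2 and mitosis, 7 fell (6.47% of all features did) and 0 rose, and in 19 the 3 E13.5 libraries lay below the 3 of E12.5, where 17.4% of all features did so. The median was -0.49, and -0.30 without E12.5 replicate 1. Cenpf, a kinetochore protein gene (chromosome 1, 189640606 to 189688086, minus strand), stood at 10.9, 6.57 and 7.07 RPKM at E12.5 and 4.75, 4.26 and 4.07 RPKM at E13.5 (-0.75 ± 0.17, adjusted p = 0.023). Top2a, for the topoisomerase that untangles chromosomes (chromosome 11, 98992943 to 99024189, minus strand), stood at 40.6, 25.5 and 25.7 RPKM at E12.5 and 19.5, 17.01 and 18.3 RPKM at E13.5 (-0.68 ± 0.16, adjusted p = 0.0293). Mki67, the proliferation marker (chromosome 7, 135689784 to 135716361, minus strand), stood at 23.7, 14.3 and 15.6 RPKM at E12.5 and 11.1, 10.1 and 10.8 RPKM at E13.5 (-0.66 ± 0.16, adjusted p = 0.0313). In these 3 genes E12.5 replicate 1 was well above replicates 2 and 3, and the E13.5 libraries lay close together. Cdc20, an activator of the anaphase-promoting complex, went from 13.8 ± 2.61 to 9.77 ± 1.12 RPKM (-0.45 ± 0.13, adjusted p = 0.0498).

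The mitotic calls were not stable, nor was the number of calls over all features. The mitotic ones numbered 3, 5 and 0 without E12.5 replicate 1, 2 or 3, and 9, 0 and 1 without E13.5 replicate 4, 5 or 6. They numbered 1 after length correction and 14 with voom on the recovered reads. Over all features 867 (6.47%) fell with all 6 libraries, and 268, 472 and 175 without E12.5 replicate 1, 2 or 3. Without E13.5 replicate 4, 5 or 6, 1033, 214 and 643 features fell, and after length correction 446. The mitotic median ran from -0.59 to -0.30 over the fits without 1 library and was -0.50 after length correction. The other regions' median for the list was -0.35, and for Top2a the ventral midbrain differed by -0.15 (95% interval -1.21 to 0.90, adjusted p = 0.994). Of 24 tested S phase genes, 2 fell, Mcm2 of the replicative helicase (-0.44 ± 0.12, adjusted p = 0.0396) and Gins2 of the same complex (-0.44 ± 0.12, adjusted p = 0.0471). Neither was called when any 1 of E12.5 replicates 1 to 3 or E13.5 replicates 5 and 6 was left out. Ccnd2, a cyclin that carries progenitors through G1, stood at 114, 96.7 and 88.1 RPKM at E12.5 and 66.5, 62.9 and 70.7 RPKM at E13.5 and fell (-0.56 ± 0.091, adjusted p = 0.0113).

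Promoters of the mitotic genes share letters known from this group, so 4 of those that fell are shown. The windows are the 250 bases before the RefSeq start on GRCm38.p6, each on the gene's own strand, minus in all 4; capitals mark CCAAT and TTTGAA or TTCGAA, read on either strand. The positions are chr1:189688087-189688336, chr11:99024190-99024439, chr7:135716380-135716629 and chr4:118437344-118437593, in the order given.
Cenpf: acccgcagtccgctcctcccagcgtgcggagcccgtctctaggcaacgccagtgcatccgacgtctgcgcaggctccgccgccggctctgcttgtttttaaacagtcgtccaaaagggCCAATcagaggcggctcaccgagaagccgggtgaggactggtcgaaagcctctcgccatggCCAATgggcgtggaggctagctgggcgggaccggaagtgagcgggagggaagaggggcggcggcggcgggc
Top2a: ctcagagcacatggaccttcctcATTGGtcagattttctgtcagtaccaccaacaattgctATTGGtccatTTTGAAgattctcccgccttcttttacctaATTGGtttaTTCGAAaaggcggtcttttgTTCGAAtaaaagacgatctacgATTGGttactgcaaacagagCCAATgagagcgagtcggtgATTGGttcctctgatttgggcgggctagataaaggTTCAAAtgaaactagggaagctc
Mki67: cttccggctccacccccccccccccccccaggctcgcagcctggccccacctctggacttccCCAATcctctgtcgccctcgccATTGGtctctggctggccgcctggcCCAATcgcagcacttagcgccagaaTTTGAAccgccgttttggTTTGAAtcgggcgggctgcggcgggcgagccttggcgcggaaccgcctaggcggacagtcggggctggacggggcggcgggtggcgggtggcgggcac
Cdc20: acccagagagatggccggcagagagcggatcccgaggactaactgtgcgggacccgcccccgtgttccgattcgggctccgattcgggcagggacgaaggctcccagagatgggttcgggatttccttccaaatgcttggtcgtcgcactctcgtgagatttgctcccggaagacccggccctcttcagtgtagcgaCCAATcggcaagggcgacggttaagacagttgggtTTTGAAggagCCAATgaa
CCAAT, bound by NF-Y, occurred 2, 6, 3 and 2 times in these windows, and TTTGAA, the cell cycle homology region bound by DREAM and MuvB complexes, 0, 2, 2 and 1 times. RefSeq windows of 300 bases, 250 before to 50 after the start, were matched by symbol for 9665 of the 13405 features. CCAAT was present in 86.4% of the 22 mitotic genes with a window and in 38.9% of all, and TTTGAA in 77.3% against 10.9%. Among all features that fell the shares were 36.9% and 12.3%, near those of all features, and among those that rose 35.5% and 8.8%. The list was chosen by function, so these shares describe mitotic genes as a class and not the step.

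Genes of progenitors split. Of 22 tested genes of neural progenitors and radial glia, 5 rose and 6 fell, where 9.56% of all features rose and 6.47% fell. Nes, an intermediate filament of progenitors, stood at 218, 170.5 and 184 RPKM at E12.5 and 109.97, 130.3 and 141 RPKM at E13.5 (-0.58 ± 0.11, adjusted p = 0.0155). Prom1, an apical membrane protein gene, went from 73.2 ± 4.18 to 49.5 ± 7.08 RPKM (-0.57 ± 0.095, adjusted p = 0.0126). Sox1 rose from 8.43 ± 1.64 to 16.04 ± 3.32 RPKM (0.85 ± 0.17, adjusted p = 0.0181). Id4, an inhibitor of bHLH factors, rose from 77.8 ± 4.93 to 100.3 ± 5.57 RPKM (0.36 ± 0.062, adjusted p = 0.0131), while Sox2 was not called (0.10 ± 0.07, adjusted p = 0.334). Pax6, which is low in the midbrain floor plate, stood at 0.702, 1.06 and 1.43 RPKM at E12.5 and 6.701, 6.35 and 1.995 RPKM at E13.5. Replicate 6 was the lowest of E13.5 but above E12.5, and the gene rose (1.44 ± 0.34, adjusted p = 0.0296). Its call was lost without any 1 of E12.5 replicates 1 to 3 or E13.5 replicate 5. The progenitor calls that rose numbered 1, 2 and 1 without E12.5 replicate 1, 2 or 3, and 6, 3 and 3 without E13.5 replicate 4, 5 or 6. Those that fell numbered 2, 4 and 1 without E12.5 replicate 1, 2 or 3, and 6, 1 and 5 without E13.5 replicate 4, 5 or 6.

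Notch signalling holds neighbouring progenitors back from differentiation. Of 21 tested genes of the pathway, 6 fell and 2 rose, where 6.47% of all features fell and 9.56% rose. Mib1, a ligase that activates Notch ligands, stood at 37.8, 32.9 and 34.3 RPKM at E12.5 and 20.4, 19.9 and 23.05 RPKM at E13.5 (-0.70 ± 0.074, adjusted p = 0.00894). The receptor gene Notch1 (-0.49 ± 0.10, adjusted p = 0.0203) and the target Hey1 (-0.50 ± 0.08, adjusted p = 0.0112) fell too, and the ligand gene Jag2 rose (0.26 ± 0.054, adjusted p = 0.0203). The ligand gene Dll1 (-0.37 ± 0.12, adjusted p = 0.0767) and the target Hes5 (-0.35 ± 0.10, adjusted p = 0.0548) were not called. Of 21 proneural and newborn neuron genes, 7 fell and 0 rose. Neurog2, which drives dopaminergic neurogenesis, went from 69.4 ± 11.3 to 49.4 ± 7.12 RPKM (-0.48 ± 0.13, adjusted p = 0.0448). Its call was lost without any 1 of E12.5 replicates 1 to 3 or E13.5 replicate 4 or 5. Nhlh1, of newborn neurons, went from 20.2 ± 2.43 to 13.9 ± 1.64 RPKM (-0.51 ± 0.11, adjusted p = 0.0197). The call of Jag2 was lost without E12.5 replicate 1, 2 or 3 or E13.5 replicate 5. Rising Notch genes numbered 0, 0 and 0 without E12.5 replicate 1, 2 or 3, and 2, 0 and 1 without E13.5 replicate 4, 5 or 6. Falling Notch genes numbered 2, 5 and 2 without E12.5 replicate 1, 2 or 3, and 6, 2 and 7 without E13.5 replicate 4, 5 or 6. Falling proneural genes numbered 0, 2 and 1 without E12.5 replicate 1, 2 or 3, and 8, 0 and 4 without E13.5 replicate 4, 5 or 6, and after length correction 3 genes fell in either list.

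Some genes of the synapse rose, each by less than 2-fold. Of 24 tested genes of the synaptic vesicle and release machinery, 10 rose and 1 fell, where 9.56% of all features rose and 6.47% fell. The median was 0.19, and 0.10 without E12.5 replicate 1. Snap25, of the fusion complex, stood at 32.3, 33.9 and 36.3 RPKM at E12.5 and 47.3, 47.7 and 45.2 RPKM at E13.5 (0.44 ± 0.056, adjusted p = 0.00942). Syp, a vesicle membrane protein gene, stood at 52.8, 57.6 and 55.6 RPKM at E12.5 and 71.1, 71.6 and 68.4 RPKM at E13.5 (0.34 ± 0.049, adjusted p = 0.00952). Rab3a, which tethers vesicles, stood at 58.2, 73.2 and 68.9 RPKM at E12.5 and 106, 99.6 and 90.95 RPKM at E13.5 (0.56 ± 0.091, adjusted p = 0.0113). The groups did not overlap in these 3. Of 31 transmitter receptor genes, 6 rose and 0 fell, among them the glutamate receptor genes Grik5 (0.29 ± 0.054, adjusted p = 0.0149) and Grin2d (0.45 ± 0.093, adjusted p = 0.0193) and the glycine receptor gene Glra2 (0.46 ± 0.12, adjusted p = 0.0352). Of 21 dense-core vesicle and neuropeptide genes, 3 rose and 0 fell: the granin Chga (0.37 ± 0.052, adjusted p = 0.00942) and the prohormone processing genes Pcsk1n (0.79 ± 0.16, adjusted p = 0.0196) and Pcsk2 (0.31 ± 0.08, adjusted p = 0.0365).

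In the other regions the medians of these lists were also above 0, at 0.16 for vesicle genes, 0.12 for receptors and 0.18 for dense-core vesicle genes. Rising vesicle genes numbered 4, 10 and 4 without E12.5 replicate 1, 2 or 3, and 9, 4 and 8 without E13.5 replicate 4, 5 or 6. Rising receptor genes numbered 1, 2 and 1 without E12.5 replicate 1, 2 or 3, and 4, 0 and 5 without E13.5 replicate 4, 5 or 6. Rising dense-core vesicle genes numbered 2, 2 and 1 without E12.5 replicate 1, 2 or 3, and 3, 1 and 3 without E13.5 replicate 4, 5 or 6. Of 25 voltage-gated and related channel genes, 3 fell (6.47% of all features did) and 0 rose. Kcnk9, a leak potassium channel, stood at 43.1, 45.1 and 43.1 RPKM at E12.5 and 24.3, 23.98 and 33.4 RPKM at E13.5 (-0.68 ± 0.12, adjusted p = 0.0127). Cacna2d1 (-0.30 ± 0.061, adjusted p = 0.0184) and Kcnd3 (-0.31 ± 0.068, adjusted p = 0.0215) were the other two. Only 1 gene of the list fell when E12.5 replicate 1 or 3 or E13.5 replicate 5 was left out. Pnoc (chromosome 14, 65400673 to 65425472, minus strand), for the neuropeptide precursor prepronociceptin, stood at 0.9197, 1.97 and 1.67 RPKM at E12.5 and 8.55, 8.94 and 4.82 RPKM at E13.5 (1.73 ± 0.24, adjusted p = 0.00942) and belongs to the 2-fold group.

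Among genes that steer axons, 13 of 43 fell and 1 rose, where 6.47% of all features fell and 9.56% rose. Robo3, which lets axons cross the midline (chromosome 9, 37415669 to 37433246, minus strand), stood at 56.5, 39.9 and 37.1 RPKM at E12.5 and 19.9, 27.3 and 19.5 RPKM at E13.5 (-0.96 ± 0.17, adjusted p = 0.0143). The receptor genes Ephb2 (-0.53 ± 0.056, adjusted p = 0.00894) and Plxna2 (-0.34 ± 0.051, adjusted p = 0.0097) fell and Ephb1 rose (0.54 ± 0.094, adjusted p = 0.0134). The netrin receptor gene Dcc fell by 0.24 (adjusted p = 0.0426). Falling guidance genes numbered 7, 8 and 5 without E12.5 replicate 1, 2 or 3, and 15, 4 and 11 without E13.5 replicate 4, 5 or 6, and 5 after length correction. The median transcript of the list is 6641 bases long against 2970 for all features. In the longest group of features described below (4928 to 30101 bases), 17.3% fell.

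Several signalling pathways held genes that fell, where 6.47% of all features fell and 9.56% rose. The shares that fell in the canonical Wnt and neurotrophic lists, and that rose in the latter, were near these. Of 31 canonical Wnt genes, 3 fell (Apc -0.34 ± 0.048, Lrp6 -0.38 ± 0.072 and Rspo2) and 0 rose. Of 23 planar polarity genes, 6 fell, led by the receptor Fzd3 (-0.44 ± 0.057, adjusted p = 0.00942), and 1 rose, the adaptor Dvl1 (0.39 ± 0.055, adjusted p = 0.00942). Of 12 hedgehog genes, 2 fell: Shh and its receptor and target Ptch1, at 23.5, 24.8 and 24.1 RPKM at E12.5 and 17.6, 18.6 and 19.8 RPKM at E13.5 (-0.35 ± 0.06, adjusted p = 0.0127). Gli1, another target, was not called (0.56 ± 0.23, adjusted p = 0.122). Without E12.5 replicate 3 only Shh fell, and without E13.5 replicate 4, 3 genes of the pathway did. Of 29 BMP and TGF-beta genes, 6 fell and 0 rose, led by the receptor genes Tgfbr1 (-0.46 ± 0.047, adjusted p = 0.00894) and Acvr2b (-0.55 ± 0.094, adjusted p = 0.0131). Among 22 neurotrophic genes 2 rose and 2 fell, with the neuregulin receptor Erbb4 at 11.8, 14.7 and 13.8 RPKM at E12.5 and 8.21, 7.84 and 8.48 RPKM at E13.5 (-0.65 ± 0.086, adjusted p = 0.00942). Falling canonical Wnt genes numbered 1, 3 and 2 without E12.5 replicate 1, 2 or 3, and 6, 1 and 4 without E13.5 replicate 4, 5 or 6. For falling polarity genes the counts were 1, 3 and 2 without E12.5 replicate 1, 2 or 3, and 6, 2 and 7 without E13.5 replicate 4, 5 or 6. For falling BMP and TGF-beta genes they were 2, 3 and 1 without E12.5 replicate 1, 2 or 3, and 8, 2 and 4 without E13.5 replicate 4, 5 or 6.

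Genes of other basal plate neurons were mostly not called. Of 12 tested genes of glutamatergic and red nucleus neurons, 2 fell, 1 rose and 9 were not called, with a median of -0.027. Over all features, 6.47% fell and 9.56% rose. The 1 that rose was Barhl2, given below with the forebrain genes. Pou4f1, of the red nucleus (chromosome 14, 104461676 to 104467999, minus strand), stood at 28.4, 31.1 and 32.5 RPKM at E12.5 and 12.3, 13.9 and 21.4 RPKM at E13.5 and fell (-0.94 ± 0.17, adjusted p = 0.0146). The call was lost without E12.5 replicate 3 or E13.5 replicate 5. Foxp2 fell from 35.8 ± 1.45 to 24.2 ± 2.21 RPKM (-0.55 ± 0.07, adjusted p = 0.00942). Of 10 motor neuron genes 1 fell and 0 rose (median -0.31, against 0.52 in the other regions). It was Isl1, at 20.9, 15.4 and 14.8 RPKM at E12.5 and 7.198, 8.14 and 13.47 RPKM at E13.5 (-0.79 ± 0.21, adjusted p = 0.0409), not called when any library but E13.5 replicate 6 was left out, in which case 4 of the 10 fell. E13.5 replicate 6 was the highest of its group. Of 7 serotonergic genes, 1 rose, Gata3, which the GABAergic list holds as well; Fev, of serotonergic neurons, was not called (0.35 ± 0.21, adjusted p = 0.268).

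Glial precursor genes appeared from low levels. Of 9 tested oligodendrocyte precursor genes, 4 rose (9.56% of all features did), each at 2-fold, and 0 fell. In all 9 the E13.5 libraries lay above those of E12.5, where 23% of all features did so. Olig1 (chromosome 16, 91269772 to 91271933, plus strand), a bHLH factor of this lineage, stood at 0.6602, 2.58 and 1.41 RPKM at E12.5 and 6.29, 6.54 and 8.97 RPKM at E13.5 (1.75 ± 0.26, adjusted p = 0.00985). Its relative Olig2 stood at 0.545, 1.44 and 0.648 RPKM at E12.5 and 4.04, 3.36 and 3.63 RPKM at E13.5 (1.35 ± 0.18, adjusted p = 0.00942). Bcan, a matrix proteoglycan of glial precursors (chromosome 3, 87987531 to 88000230, minus strand), stood at 0.679, 1.36 and 1.41 RPKM at E12.5 and 4.63, 4.51 and 5.54 RPKM at E13.5 (1.47 ± 0.16, adjusted p = 0.00942). Pdgfra, which marks these precursors and also meningeal cells, stood at 0.118, 0.5196 and 0.368 RPKM at E12.5 and 4.35, 1.19 and 1.59 RPKM at E13.5, highest in replicate 4 (1.24 ± 0.32, adjusted p = 0.0367). It was not called without any 1 of E12.5 replicates 1 to 3 or E13.5 replicate 6, and the list had 3 calls without any 1 of those E12.5 libraries. In the other regions the mean change of Olig1 was 1.003 (adjusted p = 0.0181) and that of Bcan 0.98 (0.00596). In the dorsal midbrain alone they changed by 0.071 and -0.018. Of 16 astroglial genes 1 rose and 0 fell, and without E13.5 replicate 4, or with voom, 3 rose and 1 fell. The 1 was Sparcl1, at 30.7, 46.9 and 43.2 RPKM at E12.5 and 74.8, 63.6 and 78.5 RPKM at E13.5 (0.85 ± 0.15, adjusted p = 0.0137). Aldoc, a glycolytic enzyme gene of radial glia and astroglia (chromosome 11, 78322968 to 78327781, plus strand), stood at 2.11, 4.49 and 3.92 RPKM at E12.5 and 14.1, 12.1 and 15.5 RPKM at E13.5 (1.76 ± 0.20, adjusted p = 0.00942). Its mean change in the other regions was 1.01 (limma adjusted p = 0.0146). It changed by -0.060 in the dorsal midbrain, 1.69 in the alar plate, -0.022 in the ventral forebrain and 2.43 in the ventral hindbrain.

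Several genes known from neighbouring territories rose. Otp (chromosome 13, 94875602 to 94885130, plus strand), of the hypothalamus, stood at 0, 1.45 and 1.51 RPKM at E12.5 and 7.84, 5.76 and 8.79 RPKM at E13.5 (2.19 ± 0.34, adjusted p = 0.0109). In the other regions it changed by 1.12 (adjusted p = 0.00223). Lmo1 (chromosome 7, 109138572 to 109175207, minus strand), which the dorsal midbrain list holds, stood at 6.01, 5.61 and 4.95 RPKM at E12.5 and 12.54, 18.6 and 15.8 RPKM at E13.5 (1.34 ± 0.13, adjusted p = 0.00894), with E12.5 means of 26.2 to 74.98 RPKM in the other regions. Mab21l2, of the tectum, stood at 1.69, 2.44 and 1.62 RPKM at E12.5 and 6.5998, 6.72 and 6.95 RPKM at E13.5 (1.42 ± 0.12, adjusted p = 0.00894). Pax7, of dorsal midbrain, stood at 0.0527, 0.325 and 0.133 RPKM at E12.5 and 1.33, 2.52 and 3.92 RPKM at E13.5 (1.56 ± 0.26, adjusted p = 0.0126). Of 9 dorsal midbrain genes 2 rose (Lmo1 and Pax7), and of 13 forebrain genes 2 rose (Otp and Barhl2) and 1 fell (Emx2, -0.60 ± 0.11, adjusted p = 0.0151). Over all features, 9.56% rose and 6.47% fell. Without E13.5 replicate 6, 8 of 16 tested forebrain genes rose and 1 fell. Barhl2 stood at 0.191, 0.331 and 0.441 RPKM at E12.5 and 3.92, 4.21 and 0.771 RPKM at E13.5 (1.44 ± 0.38, adjusted p = 0.0397), a call lost under 13 of 17 other settings. Vstm2l, a secreted protein gene, completed the 12 leading genes at 10.4, 12.6 and 10.2 RPKM at E12.5 and 23.6, 31.9 and 28.4 RPKM at E13.5 (1.26 ± 0.12, adjusted p = 0.00894).

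The summed level of the 9 dorsal midbrain genes was 25.4, 27.04 and 26.01 RPKM at E12.5 and 88.7, 48.2 and 41.8 RPKM at E13.5, highest in replicate 4. The list's median was 1.12, and 0.34 over the 7 genes tested without that library. For the forebrain genes it was 1.10 over 13 genes and 0.82 over the 11 tested without that library. The medians with and without it thus cover different genes. Zic2, a dorsal gene, stood at 0.752, 0.695 and 0.8196 RPKM at E12.5 and 9.38, 1.62 and 2.04 RPKM at E13.5 and was not called (1.31 ± 0.46, adjusted p = 0.0846). The part of neighbouring tissue in the rise of GABAergic genes was not tested.

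Genes of other cell types that the pieces could hold were checked by list. Over all features, 9.56% rose and 6.47% fell. The summed level of 25 meningeal and matrix genes was 319.5, 318 and 320.4 RPKM at E12.5 and 978, 300.4 and 320.3 RPKM at E13.5. Of this list 1 gene rose, Pdgfra, and 1 fell, Fn1. The call of Fn1 was lost without E12.5 replicate 1 or 3 or E13.5 replicate 5. The median change of the list was 0.65. Without replicate 4 only 18 genes of the list passed the filter and were tested, with a median of 0.0042, so the medians cover different genes. The 17 microglial genes summed to 54.97, 57.3 and 49.5 RPKM at E12.5 and 125, 63.9 and 70.4 RPKM at E13.5. The 22 endothelial genes summed to 169, 173 and 176 RPKM at E12.5 and 296, 184 and 194 RPKM at E13.5, both highest in replicate 4. Among them C1qb, a complement gene of microglia, stood at 4.37, 4.82 and 4.33 RPKM at E12.5 and 13.7, 7.76 and 7.33 RPKM at E13.5 (0.90 ± 0.20, adjusted p = 0.023). Laptm5 rose too (0.54 ± 0.14, adjusted p = 0.0369). Cldn5, of the blood-brain barrier, stood at 13.1, 15.1 and 17.9 RPKM at E12.5 and 50.5, 23.005 and 26.9 RPKM at E13.5 (1.003 ± 0.26, adjusted p = 0.0362). All 4 calls of the microglial and endothelial lists, with Sox18 (0.61 ± 0.16, adjusted p = 0.0393), were lost without any 1 of E12.5 replicates 1 to 3. Without E13.5 replicate 4, 4 of 16 tested microglial genes rose, with a median of 0.22 against 0.52 with it, and the endothelial median went from 0.26 to 0.074. In 11 of 17 microglial and 11 of 22 endothelial genes all 3 E13.5 libraries lay above E12.5, where 23% of all features did so.

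Of 7 globin entries 4 rose (9.56% of all features did), each at 2-fold, and 0 fell. Hbb-bs stood at 111, 161 and 169 RPKM at E12.5 and 412, 242 and 307 RPKM at E13.5 (1.11 ± 0.21, adjusted p = 0.0154). Hbb-bt, Hbb-b1 and Hbb-b2 rose alongside. Hbb-bt and Hbb-b2 are listed at the same position (chromosome 7, 103812523), and Hbb-bs and Hbb-b1 at 103826522 and 103826531. The 4 entries thus repeat loci that are themselves nearly identical. Their reads may have been shared, so they count as 1 observation. Hbb-y, the embryonic globin, stood at 808, 688 and 726 RPKM at E12.5 and 712, 818 and 630.3 RPKM at E13.5 (-0.046 ± 0.10, adjusted p = 0.781), and its sign turned without E12.5 replicate 1 or E13.5 replicate 6. In the other regions Hbb-bs changed by 0.70 (adjusted p = 0.0181).

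The change varied with the length of the transcript. The median was 0.15 in the shortest of 5 equal groups of features (59 to 1650 bases), then 0.083, 0.031 and -0.014, and -0.10 in the longest (4928 to 30101 bases). Of the shortest group 19% rose and 1.57% fell, and of the longest 2.61% rose and 17.3% fell. Each of the 3 E13.5 libraries showed this, with medians relative to E12.5 of 0.17, 0.13 and 0.14 in the shortest group and of -0.076, -0.13 and -0.11 in the longest for replicates 4, 5 and 6. The ventral hindbrain (0.14 to -0.11 from the shortest to the longest group), ventral forebrain (0.13 to -0.045) and dorsal midbrain (0.057 to -0.057) went the same way and the alar plate the opposite (-0.11 to 0.15). Subtracting each library's trend on length left 928 calls, 482 higher and 446 lower, of which 844 were among the 2148.

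**Figure D4:**
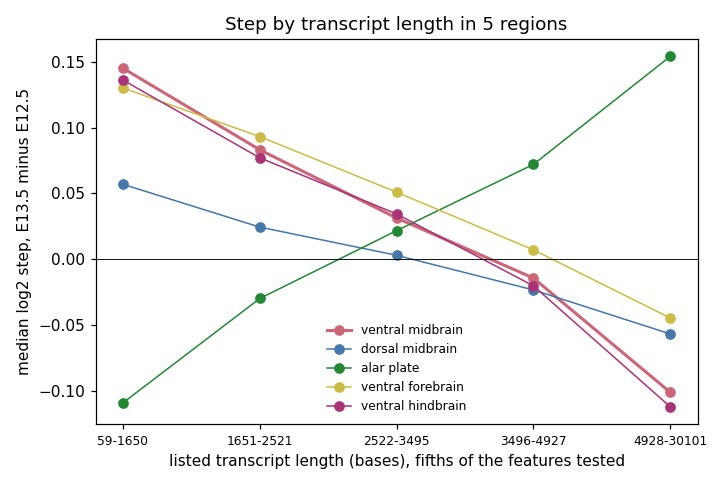
Median change from E12.5 to E13.5 in 5 groups of equal size by listed transcript length, for each of 5 regions. The ventral midbrain goes from 0.15 in the shortest to -0.10 in the longest features, and the alar plate the other way, from -0.11 to 0.15.

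Gene groups with short transcripts are read against this, and against the 9.56% of all features that rose and the 6.47% that fell. Of 52 oxidative phosphorylation genes, with a median length of 779 bases, 28 rose and 0 fell (median 0.21); 2 were called after length correction. Cox6c, a subunit of cytochrome oxidase, stood at 68.7, 67.6 and 67.3 RPKM at E12.5 and 100.04, 87.2 and 93.4 RPKM at E13.5 (0.45 ± 0.056, adjusted p = 0.00942). Ndufs6, of complex I, stood at 26.1, 27.8 and 25.5 RPKM at E12.5 and 41.9, 37.2 and 35.5 RPKM at E13.5 (0.51 ± 0.07, adjusted p = 0.00942). Of 52 cytosolic ribosomal protein genes (median length 782 bases) 14 rose and 0 fell, led by Rpl28 (0.26 ± 0.044, adjusted p = 0.0126), and 0 after the correction. Rising oxidative phosphorylation genes numbered 15, 24 and 11 without E12.5 replicate 1, 2 or 3, and 33, 15 and 24 without E13.5 replicate 4, 5 or 6. Rising ribosomal genes numbered 5, 5 and 0 without E12.5 replicate 1, 2 or 3, and 12, 6 and 7 without E13.5 replicate 4, 5 or 6. Of 27 sterol synthesis genes, of average length (2967 bases), 10 fell and 0 rose, and 6 after correction. Hmgcs1, an early enzyme of the pathway, stood at 257, 243 and 242 RPKM at E12.5 and 206, 207 and 203 RPKM at E13.5 (-0.27 ± 0.045, adjusted p = 0.0126). Stard4, a sterol carrier gene, stood at 8.04, 6.88 and 6.71 RPKM at E12.5 and 4.43, 5.04 and 4.51 RPKM at E13.5 (-0.53 ± 0.095, adjusted p = 0.0138). Falling sterol genes numbered 3, 5 and 2 without E12.5 replicate 1, 2 or 3, and 11, 2 and 11 without E13.5 replicate 4, 5 or 6.

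Imprinted genes moved both ways, with 6 of 24 higher (9.56% of all features were) and 4 lower (6.47%). Nnat (chromosome 2, 157560078 to 157562522, plus strand), an abundant imprinted transcript of developing neurons, stood at 1106, 1272 and 1207 RPKM at E12.5 and 2249.6, 2231 and 1842 RPKM at E13.5 (0.81 ± 0.10, adjusted p = 0.00942), the largest rise in RPKM among the named genes. Snrpn rose (0.41 ± 0.057, adjusted p = 0.00942) and the paternally expressed Peg3 fell (-0.38 ± 0.059, adjusted p = 0.0105). Rising imprinted genes numbered 3, 4 and 2 without E12.5 replicate 1, 2 or 3, and 9, 3 and 5 without E13.5 replicate 4, 5 or 6. Falling ones numbered 1, 2 and 2 without E12.5 replicate 1, 2 or 3, and 4, 1 and 1 without E13.5 replicate 4, 5 or 6. Of 15 housekeeping genes 1 fell, Polr2a (-0.40 ± 0.064, adjusted p = 0.0113).

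Of the 4 features lower at 2-fold, all but Snord2 named after their values were seen, 3 are short RNAs. Snord2 (-1.22 ± 0.29, adjusted p = 0.029), Snord35b (-1.32 ± 0.30, adjusted p = 0.0264) and Rnu73b (-1.42 ± 0.25, adjusted p = 0.0134) are listed at 168, 137 and 171 bases, where few reads decide a value. Rnu73b had 3, 6 and 6 reads at E12.5 and 0, 2 and 1 at E13.5. The other was Zbtb20, a zinc finger gene, at 2.92, 3.45 and 4.77 RPKM at E12.5 and 1.68, 0.899 and 1.3001 RPKM at E13.5 (-1.04 ± 0.18, adjusted p = 0.0137).

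The test of the difference between the ventral midbrain and the mean of the 4 other regions, which removes what all regions share between the stages, gave 1 feature of 13994 (0.00715%) and 0 at 2-fold (0%), with 585 at an unadjusted p below 0.05 and 0 by voom. The 1 was the predicted gene 2700069I18Rik, at 4.203, 3.64 and 3.85 RPKM at E12.5 and 7.33, 8.82 and 7.25 RPKM at E13.5, which differed by 0.90 (95% interval 0.65 to 1.15, adjusted p = 0.00206). The floor plate marker Lmx1a differed by -1.24 (95% interval -2.76 to 0.29, adjusted p = 0.994) and Nnat by 0.50 (95% interval 0.15 to 0.86, adjusted p = 0.919). Without alar plate E12.5 replicate 3 and ventral forebrain E12.5 replicate 1, whose correlations with their groups were 0.928 and 0.964, 3 features passed: 2700069I18Rik, Fstl5 (1.13, adjusted p = 0.00168) and Gpr153 (0.82, adjusted p = 0.0386), named after their values were seen.

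When limma weighted libraries by their own spread, an alternative chosen after those libraries were seen, 177 features passed, 25 of them at 2-fold. Among them were Gad1 (2.04, adjusted p = 0.00235), Slc32a1 (1.85, 0.00927), Tal1 (2.15, 0.0177), Sox14 (2.45, 0.0295), Lmo1 (1.63, 0.000154) and Pnoc (1.87, 0.00363). Lmx1a was not (-1.20, 0.135).

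**Figure D5:**
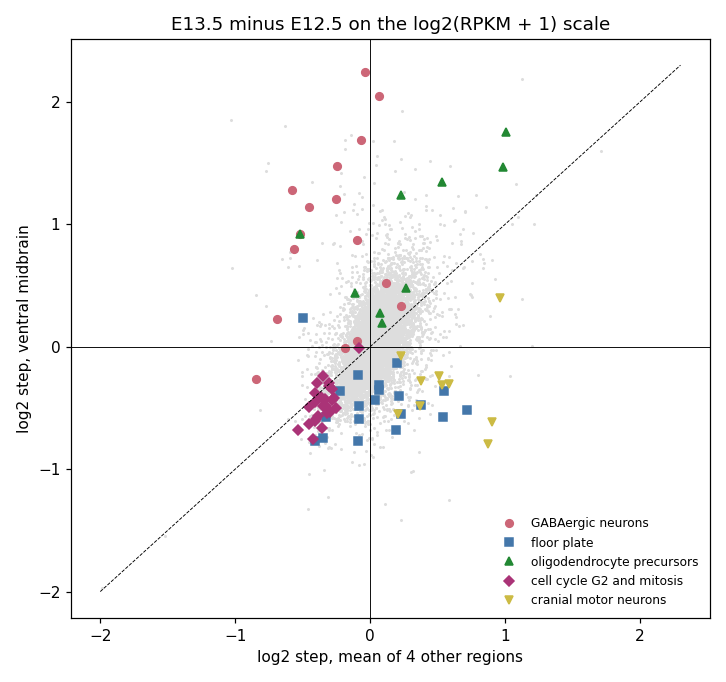
Change from E12.5 to E13.5 in the ventral midbrain (vertical) against the mean change of the 4 other regions (horizontal), both on the log2(RPKM + 1) scale, for all tested features (grey) and 5 gene lists; the dashed line marks equal changes. The GABAergic genes lie above the line, the floor plate and motor neuron genes mostly below it, and the mitosis genes, at medians of -0.49 and -0.35, near it.

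Levels at E14.5, from 3 shallower libraries with another name prefix, place the step in its course. Gad1 was at 28.9, 32.3 and 33.5 RPKM there, above its E13.5 values, and Sox14 at 9.32, 14.1 and 19.9 RPKM, of which 1 lay below the E13.5 values and the others within them. Lmx1a was at 32.6, 39.05 and 37.3 RPKM and Shh at 10.9, 25.3 and 18.2 RPKM, both below E13.5. Th was at 60.7, 77.1 and 77.8 RPKM, of which 1 lay below its range at the 2 stages before and the others within it. Slc6a3 was at 17.7, 18.8 and 16.9 RPKM, above it, and Pitx3 at 13.2, 11.4 and 14.2 RPKM, below it. Top2a was at 5.31, 8.47 and 8.23 RPKM, and Aldoc at 46.1, 33.5 and 23.6 RPKM, above E13.5. No test was made of these levels.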

How the data were processed

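Bulk RNA was sequenced from pieces of mouse embryonic brain as Illumina TruSeq libraries, per the labels' protocols. Values were deposited as RPKM, scaled by the authors with the transcript lengths the table lists; the unit was read from the values, since value times length sums to 1000000 per library and gives whole reads for 100% of values within 0.001 of a read. Bowtie and the build mm10 are named in the submitters' processing notes. For the read counter, the annotation and the use of strand nothing is stated there, so overlapping and antisense genes may share reads. Gene positions are from GENCODE vM21.

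From these values, log2(RPKM + 1) was fitted with limma 3.58.1 in R 4.3.3 with a mean-variance trend, on the 6 ventral midbrain libraries for the step and on 30 libraries for the difference from other regions. Features with a mean of at least 1 RPKM in a group were tested, with Benjamini-Hochberg adjustment over all of them. The script was tested on simulated data with known changes. With 3 reads as the limit that a count of 0 allows, floors ran from 0.213 to 0.603 reads per 1000000 in the ventral midbrain libraries, for counting error only.

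Named genes are 8 core dopaminergic genes, up to 12 per direction with the largest 2-fold change, a mean of at least 5 RPKM and no overlap between stages (passing over predicted genes), up to 8 per direction called in the difference from other regions, and up to 4 per discussed list by adjusted p plus members its sentences turn on. Members and the 44 lists (1033 entries) were chosen with earlier results of these data known. Some list members are counted but not reported here by name. The alternatives changed the pseudocount, filter, scaling, model, libraries, length trend and Xist status.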

Additional observations from a re-analysis of the deposited data

Results flagged for a closer look

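The change of 2700069I18Rik between E12.5 and E13.5 differed between the ventral midbrain and the mean of the other regions by 0.898 (limma adjusted p = 0.00206); it was higher at E13.5 in all 3 ventral midbrain libraries, by 0.84 ± 0.10, and changed by -0.056 elsewhere.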

How the results depend on the processing

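The 47 ventral midbrain features past 2-fold became 87 and 10 with pseudocounts of 0.1 and 5, 29 with a filter at 5 RPKM, 91 with voom on recovered reads (90 with median-of-ratios), 28 with Xist status as a covariate, 6 and 3 with 30 and 60 libraries in 1 fit, and 0 by limma's treat test against a log2 change of 0.5 (116 at an unadjusted p below 0.05). Leaving out 1 ventral midbrain library gave 20 to 73. The 2148 at any size became 1398 without a filter, 39 and 3 with 30 and 60 libraries, 928 with length correction, 971 with Xist status, and 471 to 2335 without 1 library. Of features passing, 50.5% were higher with voom, 42.6% with voom and median-of-ratios and 51.9% with length correction.

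The difference from the other regions gave 0 features at 2-fold and 1 at any size. At 2-fold it gave 1 with a pseudocount of 0.1, without a filter, with quantile normalization and without the 2 libraries that stand apart. Those 2 are alar plate E12.5 replicate 3 and ventral forebrain E12.5 replicate 1. The same comparison gave 25 at 2-fold with array weights, 6 against the ventral forebrain alone and 3 against the ventral hindbrain alone. At any size it gave 11 with a pseudocount of 5 and without a filter, 4 with quantile normalization, 3 without the libraries that stand apart, 177 with array weights, 6 and 3 against the ventral forebrain and hindbrain, and 0 with either voom fit, with length correction and against the dorsal midbrain or alar plate alone. Leaving out 1 library gave 0 to 4 and 1 to 13. The cause was not tested.

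The sign of genes that were not called turned as follows, with ranges over the fits that left out 1 library: Th without E12.5 replicate 1 (0.012) or 2 (0.051) or E13.5 replicate 4 (0.0077) or 5 (0.14), range -0.16 to 0.14; Pitx3 without E13.5 replicate 6 (-0.092), range -0.092 to 0.27; Slc6a3 without E12.5 replicate 1 (-0.038), range -0.038 to 0.31; En1 with quantile normalization (-0.022), length correction (-0.0047) or without E13.5 replicate 6 (-0.15); Hbb-y without E12.5 replicate 1 (0.018) or E13.5 replicate 6 (0.046) and with Xist status (0.0084), range -0.14 to 0.046 (with length correction it was -0.25). Over 171 named genes and 18 alternatives, 2353 values stayed on their side of the threshold, 630 lost the call, 63 gained one and 12 changed sign.

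No paired analysis was possible for the ventral midbrain step because the stages share no replicate number. For the difference from other regions, the replicate block left 0 features at 2-fold and 1 at any size. The labels give numbers no meaning; 25 of 30 libraries correlated best with other regions' libraries of their own number, same-numbered pairs ran from -0.22 to 0.389, and libraries of one number in a stage shared Xist status in all 5 regions.

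Chi-square per feature between replicates was 2.91 to 9.09, where counting noise gives about 1, so no pair looked like 1 library. E13.5 replicate 4, at 4973179 reads, was the shallowest of the 6.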
